A study of Homo sapiens with 29 samples.

Results

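The transcripts described here were 8 long non-coding RNAs, which are RNAs of genes that encode no protein: MIR100HG, MIR222HG, LINC00470, SLC7A11-AS1, AC087392.1, LINC01483, MALAT1 and NEAT1. They were taken from a table of 58302 genes, of which 13495 passed the filter on low counts and were tested, 1128 of them long non-coding. All 8 passed the filter. MIR100HG, MIR222HG, LINC00470, SLC7A11-AS1, AC087392.1 and LINC01483 had been picked on differences between lines or between drug and vehicle in these same libraries, with no numeric threshold. Their levels, fitted differences, ratios and intervals are therefore given as a description, with no test. MALAT1 and NEAT1 were chosen as abundant references for comparison, and were tested with all other genes.

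The 29 libraries came from tumours grown in SCID-beige mice, immunodeficient animals that lack mature T and B cells. Human MDA-MB-231 cells, a line from a breast cancer of the triple-negative subtype, or a paclitaxel-resistant derivative of it were injected orthotopically on both sides of a mouse. Resistant tumours (1500000 cells, treated from day 16) had received decitabine (n = 3), doxorubicin (n = 4), both drugs (n = 3) or vehicle (n = 4). Parental tumours (250000 cells, treated from day 6) had received decitabine (n = 4), doxorubicin (n = 3), both drugs (n = 4) or vehicle (n = 4). Decitabine was given at 0.4 mg/kg and doxorubicin at 1 mg/kg, as 2 cycles (12 days each, 2 days between them) within 26 days, and the study asked whether decitabine reverses changes tied to resistance. The line cannot be told apart from the number of cells injected or the day on which treatment began. The labels do not say whether the resistant line was a single clone, or which libraries came from the same mouse, so the spread behind each p-value is that of the samples and may be partly technical.

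Long non-coding RNAs act in several ways. Some are host transcripts whose introns carry microRNAs, short RNAs that repress messenger RNAs through a seed of bases near their 5′ end. Antisense transcripts run opposite to a protein-coding gene. Others are structural: NEAT1 scaffolds paraspeckles, nuclear bodies that retain RNA and proteins, and MALAT1 resides in nuclear speckles, which store splicing factors. Decitabine is a cytidine analogue that traps DNA methyltransferases and lowers methylation at CpG sites, where a cytosine precedes a guanine, and doxorubicin poisons topoisomerase II.

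Total counts per library ran from 3398261 to 5382295 (median 4600007). VIM (1450 to 3030 CPM), CD44 (505 to 1010 CPM) and EGFR (102 to 210 CPM), genes that MDA-MB-231 cells express, were present in every library. ESR1, the oestrogen receptor gene, reached at most 2.53 CPM, and PGR, the progesterone receptor gene, had 1 count in all libraries together. ERBB2, the third receptor gene listed as low in this line, was present in every library, at 14 to 24.5 CPM. CPM scale the counts of each library to one common total. On the second principal component of 2000 genes (13.2% of the variance), resistant decitabine 2 at −43.1 and parental vehicle 3 at −34.6 stood apart, and the next library lay at −20.6. Where leaving out both of these libraries ended a call named below, or turned the direction of a drug difference of one of the 8 transcripts given below, the value without them is also given.

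MIR100HG (ENSG00000255248) spans chr11:122028327-122556721 on the minus strand of GRCh38 and has 39 annotated transcripts. Its introns hold the genes of miR-100, let-7a-2 and miR-125b-1. MIR222HG (ENSG00000270069) spans chrX:45745211-45770274 on the minus strand, with the genes of miR-221 and miR-222 in an intron. The 5 main mature products, from RefSeq, are shown because their host transcripts lead the results, with the seed of each in capitals.
miR-100-5p: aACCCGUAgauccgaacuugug
let-7a-5p: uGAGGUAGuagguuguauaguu
miR-125b-5p: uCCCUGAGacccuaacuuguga
miR-221-3p: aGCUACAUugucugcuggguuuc
miR-222-3p: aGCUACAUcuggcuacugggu
The last pair shares 1 seed, and the other 3 each have their own. Mature microRNAs have no poly(A) tail and were not measured here, so the counts speak only for the host transcripts.

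Windows around the starts of a host transcript and of a transcript high under decitabine are shown with their CpG sites in capitals, because decitabine acts on such sites. The windows around annotated starts of MIR222HG (chrX:45770218-45770517, minus strand) and LINC01483 (chr17:69593737-69594036, plus strand) are from RefSeq on GRCh38.p14 and run from 250 bases before to 50 bases after the start.
MIR222HG window: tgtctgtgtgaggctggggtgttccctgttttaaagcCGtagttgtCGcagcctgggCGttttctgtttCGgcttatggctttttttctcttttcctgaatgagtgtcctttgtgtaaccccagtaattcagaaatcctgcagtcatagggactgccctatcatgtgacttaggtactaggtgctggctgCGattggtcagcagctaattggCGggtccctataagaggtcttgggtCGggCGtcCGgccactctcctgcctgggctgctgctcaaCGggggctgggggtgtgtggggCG
LINC01483 window: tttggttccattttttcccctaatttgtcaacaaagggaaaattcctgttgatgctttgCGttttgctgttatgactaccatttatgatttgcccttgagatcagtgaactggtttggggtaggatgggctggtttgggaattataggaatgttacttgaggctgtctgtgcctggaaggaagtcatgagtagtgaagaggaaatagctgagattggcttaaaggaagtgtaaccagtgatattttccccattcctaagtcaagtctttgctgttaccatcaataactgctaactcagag
The motif counted was CG, which reads the same on both strands. The MIR222HG window held 11 CpG sites, a number reached by 54.7% of 35116 RefSeq windows of the same length. The LINC01483 window held 1, as did or exceeded 96% of them. The 2 windows of MALAT1 held 37 and 14 CpG sites (11.3% and 50.3% of windows held at least as many), and the 6 windows of MIR100HG held between 2 and 10. Methylation was not measured here.

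Reads were tags from near the 3′ end of polyadenylated RNA, so the counted part of a transcript is its tail. The last 60 bases of 3 annotated transcripts are shown with the polyadenylation hexamer in capitals: AC087392.1 at chr17:911153-911212 (plus strand), MIR222HG at chrX:45745211-45745270 (minus strand) and a short form of NEAT1 at chr11:65426454-65426513 (plus strand).
AC087392.1 end: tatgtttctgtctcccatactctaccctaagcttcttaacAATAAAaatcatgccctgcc
MIR222HG end: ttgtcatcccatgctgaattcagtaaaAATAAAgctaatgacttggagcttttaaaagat
NEAT1 short form end: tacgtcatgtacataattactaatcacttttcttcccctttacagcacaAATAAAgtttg
The motifs searched were AATAAA and ATTAAA in the last 40 bases, on the transcript strand only, and they can overlap. At least 1 of them was found in 37.9% of 29566 long non-coding transcripts. The share was 1 of 1 for AC087392.1, 1 of 2 for MIR222HG, 15 of 39 for MIR100HG, 5 of 11 for LINC00470, 3 of 5 for SLC7A11-AS1, 2 of 5 for LINC01483, 8 of 17 for MALAT1 and 1 of 8 for NEAT1. The long form of NEAT1 and full-length MALAT1 end in a triple helix without a poly(A) tail, so these counts need not reflect their full-length RNA.

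Both microRNA hosts were lower in parental tumours given a drug than in parental tumours given vehicle, and differed little between drug and vehicle in resistant tumours. MIR100HG, whose microRNAs act in growth and differentiation control, stood at 104, 141 and 84.3 CPM in resistant tumours under decitabine, at 109, 126, 161 and 71.1 CPM under doxorubicin, at 91.8, 124 and 102 CPM under both drugs and at 106, 100, 106 and 101 CPM under vehicle. In parental tumours it stood at 55.8, 83, 68.8 and 94 CPM under decitabine, at 57.9, 63 and 45.1 CPM under doxorubicin, at 75.8, 62.5, 72.6 and 90.6 CPM under both drugs and at 133, 94.5, 132 and 127 CPM under vehicle. Every treated parental library lay below every parental vehicle library, while the treated and vehicle libraries of resistant tumours overlapped. In bulk samples, fewer cells with a transcript and less RNA per cell cannot be told apart.

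The fitted log2 differences of MIR100HG from vehicle in parental tumours were −0.69 (SE 0.19) under decitabine, −1.13 (SE 0.21) under doxorubicin and −0.69 (SE 0.19) under both drugs. In resistant tumours they were 0.08 (SE 0.21), 0.17 (SE 0.19) and 0.04 (SE 0.21) in the same order. The line difference in the decitabine effect, averaged over doxorubicin, was only 0.10 (SE 0.20), and −0.03 without both libraries that stood apart. The decitabine effect averaged over lines and doxorubicin was −0.07 (SE 0.10). Between lines under vehicle the difference was −0.23 (SE 0.19, resistant minus parental), with overlapping libraries. Averaged over treatments it was 0.47 (SE 0.10). Ranked by mean, the 5 highest groups were parental vehicle (122 ± 18.3 CPM, SD) and the 4 resistant groups (103 ± 3.18 to 117 ± 37.2 CPM), and neighbours in this order overlapped. The next group, parental combination, did not overlap resistant vehicle above it, and parental doxorubicin was lowest at 55.3 ± 9.23 CPM.

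MIR222HG hosts a pair of microRNAs known to repress cyclin-dependent kinase inhibitors. Its levels in resistant tumours were 106, 125 and 82.6 CPM under decitabine, 89.5, 108, 124 and 92.2 CPM under doxorubicin, 106, 126 and 83.2 CPM under both drugs and 92.5, 100, 116 and 104 CPM under vehicle. In parental tumours they were 69.7, 84, 61.8 and 63.8 CPM under decitabine, 70.2, 76.8 and 71.1 CPM under doxorubicin, 83.8, 78.6, 105 and 75.2 CPM under both drugs and 118, 114, 113 and 122 CPM under vehicle. Again no treated parental library reached the parental vehicle libraries, and in resistant tumours the groups overlapped. The log2 differences from vehicle in parental tumours were −0.74 (SE 0.14) under decitabine, −0.68 (SE 0.15) under doxorubicin and −0.45 (SE 0.14) under both drugs. In resistant tumours they lay between 0 and 0.02 (SE 0.14 to 0.15). The line difference in the decitabine effect, averaged over doxorubicin, was 0.27 (SE 0.15). The decitabine effect averaged over lines and doxorubicin was −0.12 (SE 0.07). Without both libraries that stood apart, the decitabine difference in parental tumours was −0.65 for MIR100HG and −0.76 for MIR222HG, and that in resistant tumours was −0.13 for each. Between resistant and parental tumours the difference was −0.18 under vehicle (SE 0.14) and 0.30 averaged over treatments (SE 0.07). By mean, parental vehicle (117 ± 4.31 CPM, SD) stood first, then the 4 resistant groups (103 ± 9.6 to 105 ± 21.4 CPM) and the 3 treated parental groups (85.7 ± 13.4 CPM under both drugs to 69.8 ± 10 CPM under decitabine), and each group overlapped the next.

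**Figure D1:**
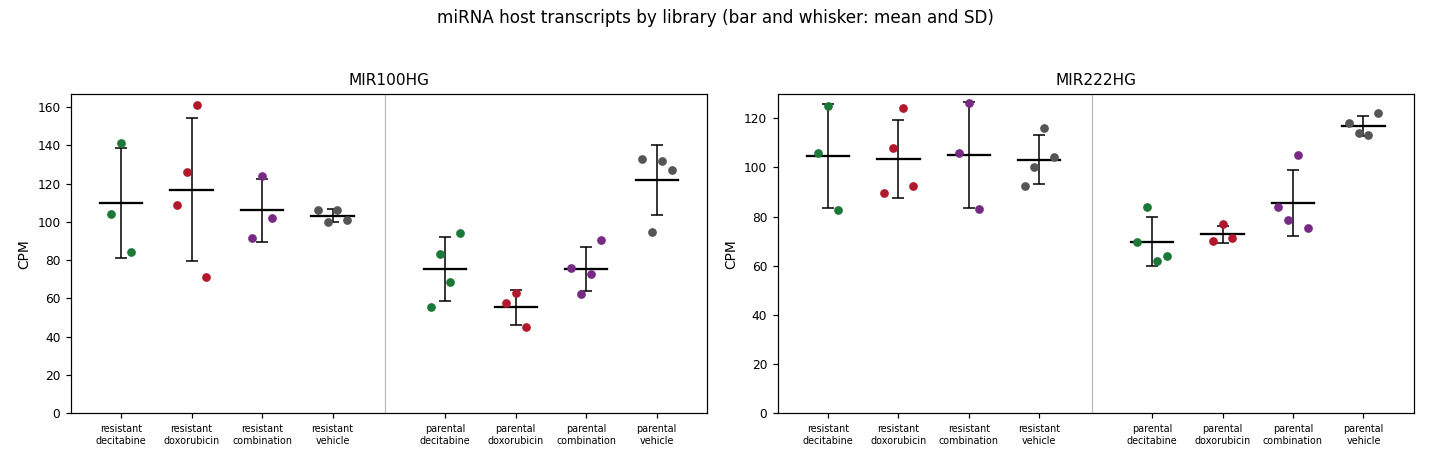
CPM (vertical axes) of MIR100HG (left) and MIR222HG (right) in each library (points) of the 8 groups, resistant groups on the left of each panel, with bars for the mean and whiskers for the SD. In parental tumours the treated libraries lie below the vehicle libraries, and in resistant tumours they overlap them.

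Genes that lie inside these hosts or near them were tested on their own. The microRNA gene MIR125B1, within an intron of MIR100HG, had 178 counts over all libraries, which may include reads of the host, since the sources used here give no strand or overlap setting of the counting. Its decitabine effect averaged over lines and doxorubicin was −1.01 (SE 0.31, edgeR adjusted p = 0.0454), and the call was lost in 22 of 29 fits with 1 library left out (adjusted p up to 0.0907), with both libraries that stood apart left out (adjusted p = 0.0524) and with the replicate number as a block (adjusted p = 0.056). UBASH3B, the other neighbour within 250 kb of MIR100HG that was tested, was not called in any of the 11 contrasts. ENSG00000269902, a transcript inside MIR222HG with 166 counts, was lower in resistant tumours averaged over treatments by −0.73 (edgeR adjusted p = 0.0285), and 6 of 29 fits with 1 library left out lost the call. BLID, which overlaps MIR100HG, had 65 counts, and the microRNA genes MIR100, MIR221 and MIR222 had 7, 7 and 11. LINC01204, 115009 bases from MIR222HG, averaged 13.4 ± 4.14 CPM in resistant and 4.77 ± 1.22 CPM in parental tumours under vehicle (SD, n = 4 each). That is 1.49 on the log2 scale (SE 0.28, edgeR adjusted p = 0.000244), and every fit with 1 library left out kept the call.

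The targets of these microRNAs were tested through lists, which were written with earlier results of these data known. Of 20 tested targets of miR-221 and miR-222, none rose and 1 fell under decitabine in parental tumours, where 1.67% of all genes were called and the list median was −0.08 on the log2 scale, with 0.01 for all genes. The gene that fell, CDKN1C, encodes a cyclin-dependent kinase inhibitor and averaged 18.9 ± 6.86 CPM under decitabine and 37.5 ± 9.33 CPM under vehicle (log2 −0.99, SE 0.24, edgeR adjusted p = 0.0355). The edgeR call was lost when any of parental decitabine 2 and 3 and parental vehicle 2, 3 and 4 was left out (adjusted p between 0.0523 and 0.184) and without both libraries that stood apart (adjusted p = 0.0572). Between lines 2 of the 20 rose and 1 fell under vehicle, where 20.1% of all genes were called, and 5 rose and 5 fell averaged over treatments, where 46.0% were. Under vehicle the genes called in resistant against parental tumours were TIMP3, an inhibitor of matrix metalloproteinases, by 0.81 (SE 0.16, edgeR adjusted p = 0.000675), TNFAIP3, a brake on NF-kB signalling, by 0.96 (SE 0.25, edgeR adjusted p = 0.00719), and ICAM1, an adhesion molecule, by −1.53 (SE 0.32, edgeR adjusted p = 0.00106).

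Of 40 tested targets of miR-100, let-7a and miR-125b, 2 rose and none fell under decitabine in parental tumours (list median 0.05, all genes 0.01, 1.67% of all genes called). CDC25A, a phosphatase that drives the cell cycle, averaged 39.5 ± 10.3 CPM under decitabine and 20.6 ± 5.52 CPM under vehicle (log2 0.94, SE 0.23, edgeR adjusted p = 0.0353). FKBP5, a co-chaperone of steroid receptors, rose by 0.90 (SE 0.22, edgeR adjusted p = 0.0411). In edgeR fits with 1 library left out, both calls were lost without parental decitabine 3 (adjusted p = 0.213 for CDC25A and 0.219 for FKBP5) or parental vehicle 2, 3 or 4, and that of FKBP5 also without parental decitabine 2 (adjusted p = 0.0555). They were also lost without both libraries that stood apart (edgeR adjusted p = 0.0842 for CDC25A and 0.0583 for FKBP5) and with the replicate number as a block (edgeR adjusted p = 0.051 and 0.0519). Between lines 3 of the 40 rose and 5 fell under vehicle, a share of 8 in 40 beside 20.1% of all genes, and 10 rose and 11 fell averaged over treatments, beside 46.0%. MUC1, a membrane mucin, was higher in resistant tumours under vehicle by 2.86 (SE 0.37, edgeR adjusted p = 2.09e-06). Also under vehicle, IGF2BP3, an RNA-binding protein of embryonic tissue, was lower by −0.83 (SE 0.14, edgeR adjusted p = 9.64e-05), as was the apoptosis inhibitor gene BCL2 by −0.96 (SE 0.25, edgeR adjusted p = 0.00626).

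LINC00470 and SLC7A11-AS1 were high in resistant tumours and at or near no count in parental tumours. LINC00470 (ENSG00000132204), an intergenic RNA at chr18:1254383-1408344 on the minus strand of GRCh38, had 1040 counts in the 14 resistant libraries and 1 in the 15 parental libraries. Its levels in resistant tumours were 13.4, 21.2 and 15.1 CPM under decitabine, 15, 15.3, 21.7 and 18.3 CPM under doxorubicin, 23.6, 19.3 and 14.1 CPM under both drugs and 9.95, 15.7, 17.6 and 13.6 CPM under vehicle. The single parental count was in parental combination 1, at 0.186 CPM, and a count of 0 in the other parental groups allows up to 0.151 CPM under decitabine, 0.221 CPM under doxorubicin and 0.175 CPM under vehicle (3 counts over the group). The lines did not overlap.

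With that floor, LINC00470 was at least 107-fold higher in resistant than in parental tumours under decitabine, at least 79.3-fold under doxorubicin and at least 81.6-fold under vehicle. Under both drugs the ratio was 381 (exact 95% interval 67.8 to 15100, counting error only), and at least 93.3 without parental combination 1, which held the single parental count. The bound under doxorubicin was 48.9 without parental doxorubicin 1 and 52.7 without parental doxorubicin 2. Such bounds, here and below, allow for the error of the group with no count only, not for that of the other group. Within the resistant line the log2 differences from vehicle were 0.21 (SE 0.25) under decitabine, 0.30 (SE 0.23) under doxorubicin and 0.41 (SE 0.24) under both drugs, and the libraries overlapped. Without both libraries that stood apart, that under decitabine was 0. No other tested gene lay within 250 kb of it.

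SLC7A11-AS1 (ENSG00000250033, chr4:138057464-138178177, plus strand) runs opposite to SLC7A11, which encodes the cystine transporter subunit that feeds glutathione synthesis. It shared 865 exon bases with SLC7A11. It also shared 183 with LINC00616, which had 1 count. Its levels in resistant tumours were 8.01, 12.7 and 4.68 CPM under decitabine, 5.61, 4.14, 10.1 and 12.4 CPM under doxorubicin, 7.58, 23 and 11.5 CPM under both drugs and 6.56, 3.29, 5.2 and 16.7 CPM under vehicle. In parental tumours it reached 0, 0.959, 0.585 and 0.232 CPM under decitabine, 0, 0.439 and 0.782 CPM under doxorubicin and 1.3, 1.38, 0.605 and 1.46 CPM under both drugs, and it had no count in the 4 vehicle libraries. The lowest resistant library stood above the highest parental one. In parental tumours the group given both drugs did not overlap the vehicle group.

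The ratio of SLC7A11-AS1 between resistant and parental tumours was 17.9 (exact 95% interval 9.08 to 40.2) under decitabine, 21.8 (9.15 to 68.2) under doxorubicin and 11.5 (7.48 to 18.4) under both drugs, and it was at least 46.4-fold under vehicle. Of the 137 resistant vehicle counts, 74 were in resistant vehicle 4, and without that library the bound was 28.9. Without parental decitabine 2 the ratio under decitabine was 29.7, and under doxorubicin it was 13.5 without parental doxorubicin 1 and 39.2 without parental doxorubicin 3. In parental tumours the combination group held 24 counts and the vehicle group 0, a level 6.80 times the floor of the vehicle group. In resistant tumours the log2 differences from vehicle were 0.06 (SE 0.50) under decitabine, 0.01 (SE 0.46) under doxorubicin and 0.80 (SE 0.48) under both drugs, within the spread of the libraries. Without both libraries that stood apart, that under decitabine was −0.33.

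SLC7A11 itself was tested and was higher in resistant tumours, by less than its antisense transcript. It averaged 80.1 ± 15.6 CPM in resistant and 40.4 ± 12.2 CPM in parental tumours under vehicle (SD, n = 4 each; log2 0.99, SE 0.22, edgeR adjusted p = 0.00155). Averaged over treatments the difference was 0.83 (SE 0.11, edgeR adjusted p = 8.58e-07), and both calls held with any 1 library left out, in the edgeR fit. No drug changed it in either line by the test. Reads of the shared bases could not be assigned without the strand setting, and how far they enter either count was not tested. Under vehicle SLC7A11-AS1 averaged 7.94 ± 6 CPM in resistant tumours and had no count in parental tumours.

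Other genes of cystine import and glutathione synthesis were examined as a list of 14 tested genes. Under vehicle 1, SLC7A11 itself, rose and 1 fell in resistant against parental tumours (list median 0.12, all genes 0.02), where 20.1% of all genes were called, and averaged over treatments 4 rose and 3 fell, where 46.0% were. GCLM was the gene that fell under vehicle (log2 −0.59, SE 0.20, edgeR adjusted p = 0.0339), a call lost without parental vehicle 1, 3 or 4 or resistant vehicle 1 or 4 (edgeR adjusted p from 0.0542 to 0.128), and without both libraries that stood apart (edgeR adjusted p = 0.0652). Averaged over treatments, ATF4, a transcription factor of the amino acid stress response, was higher by 0.34 (SE 0.10, edgeR adjusted p = 0.00743). GCLM, a subunit of the rate-limiting enzyme of glutathione synthesis, was lower by −0.47 averaged over treatments (SE 0.10, edgeR adjusted p = 0.000489), as was TXNRD1, a thioredoxin reductase, by −0.40 (SE 0.11, edgeR adjusted p = 0.00345). GPX4, which detoxifies lipid peroxides, was lower with decitabine averaged over lines and doxorubicin, by −0.28 (SE 0.07, edgeR adjusted p = 0.0133).

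**Figure D2:**
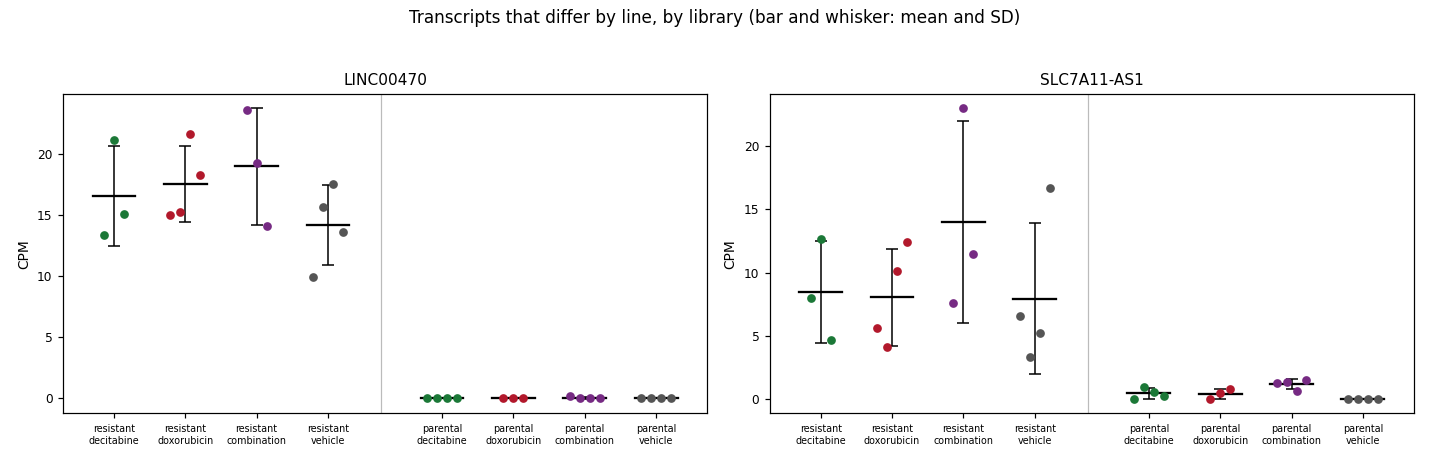
CPM (vertical axes) of LINC00470 (left) and SLC7A11-AS1 (right) in each library (points) of the 8 groups, resistant groups on the left of each panel, with bars for the mean and whiskers for the SD. Resistant libraries lie between 9.95 and 23.6 CPM for LINC00470 and between 3.29 and 23 CPM for SLC7A11-AS1, and parental libraries reach at most 0.186 and 1.46 CPM.

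AC087392.1 and LINC01483 were high in tumours given decitabine, AC087392.1 in both lines and LINC01483 in the resistant line. AC087392.1 (ENSG00000262003) is a 2-exon transcript of 820 bases at chr17:909632-911212, antisense to NXN, a thioredoxin-family gene, and it lies within NXN without sharing exon bases with it. Its own function is not given in the sources used here. In resistant tumours it stood at 8.43, 5.09 and 8.73 CPM under decitabine, at 2.2, 0.654, 0.224 and 0.21 CPM under doxorubicin, at 7.79, 12.3 and 8.24 CPM under both drugs and at 1.46, 0.253, 0 and 0 CPM under vehicle. In parental tumours it stood at 4.18, 2.49, 5.07 and 1.86 CPM under decitabine, at 0.192, 0.439 and 0.782 CPM under doxorubicin, at 3.17, 3.93, 4.24 and 5.83 CPM under both drugs and at 0, 0.217, 0.257 and 0.228 CPM under vehicle. In each line, every library given decitabine, alone or with doxorubicin, exceeded every vehicle library and every library given doxorubicin alone.

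The ratio of AC087392.1 between decitabine and vehicle was 18.4 (exact 95% interval 8.63 to 47) in resistant tumours, from 100 and 7 counts, and 19.8 (6.51 to 98.6) in parental tumours, from 69 and 3 counts. Between both drugs and vehicle it was 22.5 (10.6 to 57.1) in resistant and 24.4 (8.06 to 120) in parental tumours. Doxorubicin alone gave 2.06 (0.80 to 5.91) in resistant and 2.53 (0.54 to 15.6) in parental tumours. These intervals cover counting error only, and over all genes libraries of a group differed by more than that. The fitted decitabine effect averaged over lines and doxorubicin was 3.70 on the log2 scale (SE 0.32), and it was 3.80 without both libraries that stood apart. Of the 7 resistant vehicle counts, most fell in resistant vehicle 1 at 1.46 CPM, and the fitted log2 difference under decitabine in resistant tumours, 4.09 (SE 0.61), was 6.16 without that library. Without it the ratios to vehicle in resistant tumours were 97.7 under decitabine, 119 under both drugs and 10.9 under doxorubicin alone, the last being 0.875 without resistant doxorubicin 1. Under decitabine, resistant tumours held 2.20 times the parental level (1.61 to 3.04), and under both drugs 2.19 times (1.65 to 2.91), and the lines did not overlap under either treatment, though under decitabine alone the lowest resistant library (5.09 CPM) was close to the highest parental one (5.07 CPM).

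None of the 8 tested genes within 250 kb of AC087392.1 was called with decitabine in either line or averaged over lines. NXN averaged 25.9 ± 7.45 CPM under decitabine and 21.8 ± 7.33 CPM under vehicle in resistant tumours (log2 0.24, SE 0.23, edgeR adjusted p = 0.588). In parental tumours it averaged 27.9 ± 3.12 CPM and 24.5 ± 0.923 CPM (log2 0.19, SE 0.21, edgeR adjusted p = 0.646). Under both drugs its differences from vehicle were 0.74 (SE 0.22, edgeR adjusted p = 0.11) in resistant and 0.65 (SE 0.21, edgeR adjusted p = 0.106) in parental tumours.

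Some markers of other cell types were also higher with decitabine. The summed level of 6 endothelial markers ranged from 26 to 32.5 CPM under decitabine, from 27.3 to 41.6 CPM under both drugs and from 12.2 to 16 CPM under vehicle in resistant tumours. In parental tumours it ranged from 23.2 to 24.8 CPM, from 27 to 30.7 CPM and from 17.3 to 26 CPM in the same order, and in parental tumours under doxorubicin alone it was as high, at 23 to 30.6 CPM, while in resistant tumours it was 8.94 to 19.8 CPM. Of the 4 endothelial markers tested, none was called under decitabine in parental tumours (1.67% of all genes called). In resistant tumours 1 was higher (3.33% of all genes called). With decitabine averaged over lines and doxorubicin 3 were higher (6.80% of all genes called). VWF, a defining endothelial marker, had 8 counts in all libraries. The sum of 8 myeloid markers ranged from 156 to 215 CPM under decitabine and from 101 to 127 CPM under vehicle in resistant tumours, and from 97.6 to 168 CPM and from 66.6 to 105 CPM in parental tumours. Under both drugs it ranged from 146 to 164 CPM in resistant and from 83.2 to 134 CPM in parental tumours, where it overlapped vehicle. Under doxorubicin alone it ranged from 62.4 to 77.9 CPM in resistant and from 101 to 117 CPM in parental tumours. Of the 6 myeloid markers tested, 2 were higher with decitabine averaged over lines and doxorubicin (6.80% of all genes called). None of the 4 fibroblast markers tested was called in any contrast. The injected human cells were of a breast cancer line, so endothelial, myeloid or fibroblast cells would come from the mouse. The handling of mouse reads was not stated, and the part of such cells or reads in the counts of AC087392.1 was not tested.

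LINC01483 (ENSG00000227517), an intergenic RNA at chr17:69577251-69903000 on the plus strand, was the least abundant of the genes tested, with 43 counts in all, and it passed the filter through the resistant decitabine group. In that group it stood at 2.26, 2.26 and 2.13 CPM, from 29 counts, and in resistant tumours given both drugs at 0.433, 0.242 and 0.603 CPM, from 6 counts. Each of the other 6 groups held 1 or 2 counts, with no library above 0.261 CPM. The ratio between decitabine and vehicle in resistant tumours was 37.4 (exact 95% interval 6.21 to 1530, counting error only). Since LINC01483 was picked on such differences, its intervals describe the counts and are no test. For both drugs it was 7.39 (0.897 to 340). The single vehicle count was in resistant vehicle 4, and without that library the ratios were at least 9.21 under decitabine and at least 1.82 under both drugs, and the fitted log2 difference under decitabine was 6.37. Parental tumours had 1 count under decitabine and 1 under vehicle. Without both libraries that stood apart, the fitted log2 difference under decitabine in resistant tumours was 4.69, against 4.70 with them. MAP2K6, the only tested neighbour within 250 kb, was not called with decitabine in either line.

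**Figure D3:**
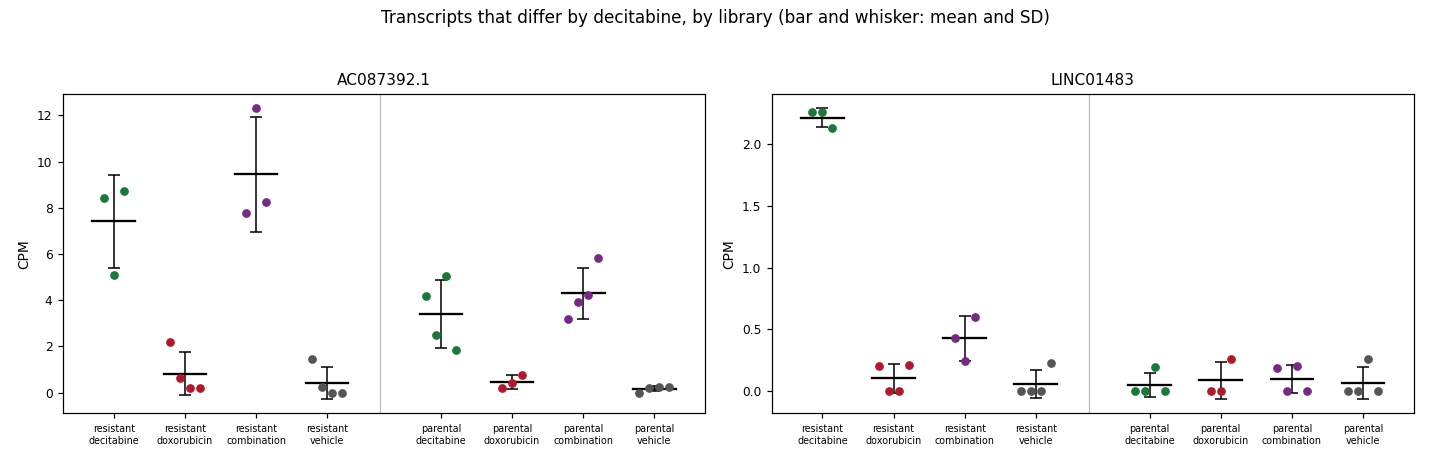
CPM (vertical axes) of AC087392.1 (left) and LINC01483 (right) in each library (points) of the 8 groups, resistant groups on the left of each panel, with bars for the mean and whiskers for the SD. AC087392.1 is at 1.86 CPM or more in every parental library given decitabine and at 5.09 CPM or more in every such resistant library, and LINC01483 is above 2 CPM only in the 3 resistant decitabine libraries.

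MALAT1 and NEAT1, neighbours 52148 bases apart on chromosome 11, were tested as the abundant references. NEAT1 was higher in resistant than in parental tumours, and MALAT1 was lower under decitabine in parental tumours. MALAT1 (ENSG00000251562, chr11:65497688-65506516, plus strand) took 0.575% of all counts and ranked 7 of the 13495 genes, while ENSG00000270117, on the opposite strand within it, had 12 counts. Its levels in resistant tumours were 6090, 7040 and 5000 CPM under decitabine, 4930, 6380, 7100 and 5040 CPM under doxorubicin, 5550, 6100 and 7090 CPM under both drugs and 8440, 5470, 6270 and 5190 CPM under vehicle. In parental tumours they were 3860, 5230, 4450 and 4010 CPM under decitabine, 3520, 5570 and 4210 CPM under doxorubicin, 5740, 6500, 5860 and 6550 CPM under both drugs and 7330, 5360, 7250 and 7400 CPM under vehicle. Only the parental decitabine group stood clear of its vehicle group, and by a small gap, from 5230 to 5360 CPM.

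In parental tumours MALAT1 fell under decitabine by 0.64 on the log2 scale (SE 0.16, edgeR adjusted p = 0.0411). The edgeR call was lost without parental decitabine 1, 3 or 4, parental vehicle 1, 3 or 4 or resistant doxorubicin 2 (adjusted p from 0.05 to 0.177), without both libraries that stood apart (adjusted p = 0.0698) and with the replicate number as a block (adjusted p = 0.0516). The differences under doxorubicin (−0.62, SE 0.18, edgeR adjusted p = 0.131) and under both drugs (−0.15, SE 0.16, edgeR adjusted p = 0.63) were not called. In resistant tumours the differences were −0.07 (SE 0.17) under decitabine, −0.11 (SE 0.16) under doxorubicin and −0.02 (SE 0.17) under both drugs, none called. The test of the line difference in the decitabine effect, averaged over doxorubicin, gave 0.09 (SE 0.17, edgeR adjusted p = 0.754). Between lines, MALAT1 differed by −0.11 under vehicle (SE 0.16, edgeR adjusted p = 0.689) and by 0.19 averaged over treatments (SE 0.09, edgeR adjusted p = 0.0654), the second being called in 9 of 29 fits with 1 library left out.

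NEAT1 (ENSG00000245532, chr11:65422774-65445540, plus strand) took 0.0683% of counts and ranked 182. Its levels in resistant tumours were 1050, 972 and 675 CPM under decitabine, 931, 848, 1280 and 1070 CPM under doxorubicin, 998, 754 and 836 CPM under both drugs and 853, 677, 1130 and 781 CPM under vehicle. In parental tumours they were 354, 403, 259 and 237 CPM under decitabine, 282, 579 and 314 CPM under doxorubicin, 745, 704, 567 and 465 CPM under both drugs and 621, 564, 372 and 653 CPM under vehicle. The resistant and parental groups did not overlap under decitabine, doxorubicin, both drugs or vehicle. The gap was small under both drugs, from 745 CPM (parental) to 754 CPM (resistant), and under vehicle, from 653 to 677 CPM. The mean was 860 ± 193 CPM in resistant and 553 ± 126 CPM in parental tumours under vehicle (SD, n = 4 each).

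Averaged over treatments, NEAT1 was higher in resistant tumours by 1.01 on the log2 scale (SE 0.12, edgeR adjusted p = 9.62e-08), a call that held with any 1 library left out (0.96 to 1.11). Under vehicle alone the difference was 0.64 (SE 0.23, edgeR adjusted p = 0.0446). That edgeR call was lost without parental vehicle 2 or 3, resistant vehicle 1, 3 or 4 or resistant combination 3 (adjusted p from 0.051 to 0.151), and without both libraries that stood apart (log2 0.49, adjusted p = 0.174). In parental tumours the differences from vehicle were −0.82 under decitabine (SE 0.23, edgeR adjusted p = 0.0557), −0.50 under doxorubicin (SE 0.25, edgeR adjusted p = 0.481) and 0.17 under both drugs (SE 0.22, edgeR adjusted p = 0.705). Without both libraries that stood apart they were −0.97, −0.64 and 0.02 in the same order. In resistant tumours they were 0.06 (SE 0.24), 0.26 (SE 0.22) and 0 (SE 0.24) in the same order, none called. DESeq2 called the decitabine difference in parental tumours (adjusted p = 0.0216).

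**Figure D4:**
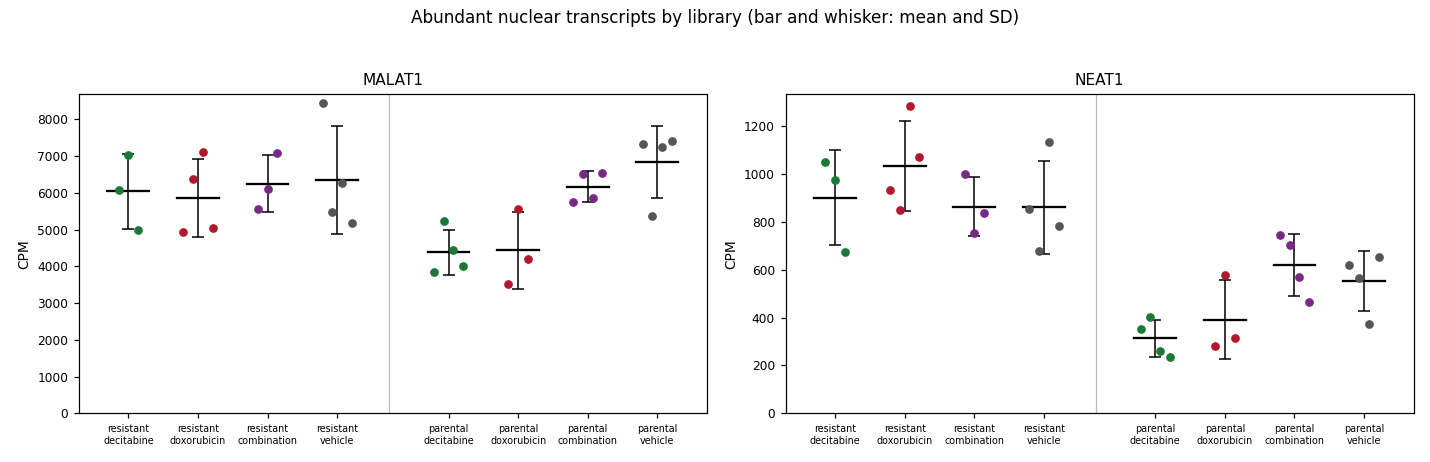
CPM (vertical axes, from 0) of MALAT1 (left) and NEAT1 (right) in each library (points) of the 8 groups, resistant groups on the left of each panel, with bars for the mean and whiskers for the SD. Resistant NEAT1 libraries start at 675 CPM, and parental libraries given both drugs stand above those given either drug alone for MALAT1.

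MALAT1, NEAT1 and both microRNA hosts had lower group means under each single drug than under both drugs in parental tumours, except that MIR100HG averaged 75.4 CPM under decitabine and under both drugs. The decitabine by doxorubicin interaction in parental tumours, added after these levels were seen, was 1.11 for MALAT1 (SE 0.24) and 1.48 for NEAT1 (SE 0.34) in the edgeR fit across all genes. Neither passed adjustment over all genes (edgeR adjusted p = 0.125 for each), where 1 gene of 13495 was called, or 0.00741%. DESeq2 called both (adjusted p = 0.00877 for MALAT1 and 0.0111 for NEAT1). For MIR100HG and MIR222HG the interaction is a description, 1.13 (SE 0.29) and 0.98 (SE 0.21). Its median was 0.22 over all long non-coding genes tested and 0.01 over all genes. The 3 parental contrasts share the same vehicle libraries, so their values are not independent.

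**Figure D5:**
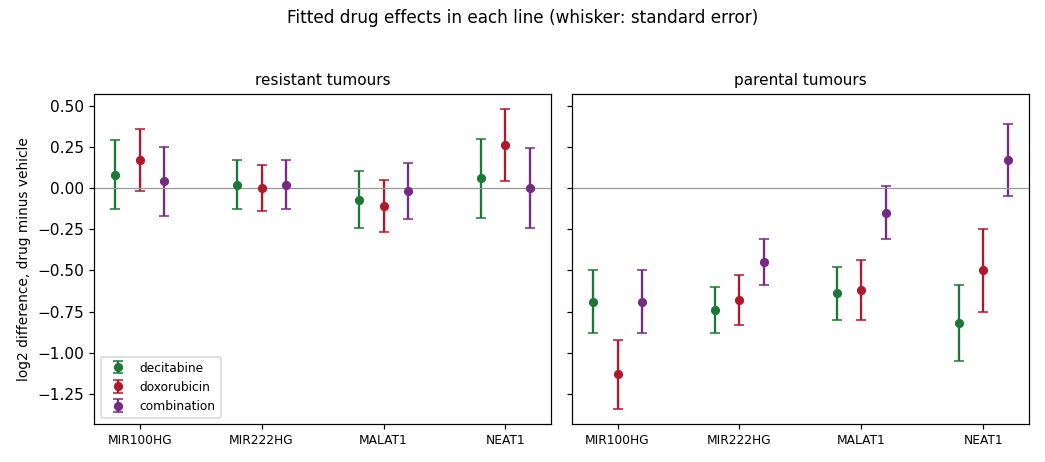
Fitted log2 differences from vehicle (vertical axis) of MIR100HG, MIR222HG, MALAT1 and NEAT1 under decitabine, doxorubicin and both drugs in resistant (left) and parental (right) tumours, with whiskers for the SE. Values in resistant tumours lie between −0.11 and 0.26, and those in parental tumours between −1.13 and 0.17.

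Of 18 tested genes within 250 kb of NEAT1, none was higher and 2 were lower in resistant than in parental tumours under vehicle (20.1% of all genes called), and 4 were higher and 2 lower averaged over treatments (46.0%). LTBP3, which binds latent TGF-β, was lower in resistant than in parental tumours under vehicle by −1.54 (SE 0.27, edgeR adjusted p = 0.000153), and SIPA1, a GTPase-activating protein, by −0.79 (SE 0.20, edgeR adjusted p = 0.0046). SLC25A45, a mitochondrial carrier gene, was higher averaged over treatments by 0.88 (SE 0.16, edgeR adjusted p = 3.98e-05).

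The proteins of the bodies in which these RNAs reside were examined as lists. Of 28 tested genes of paraspeckle proteins, none rose and 6 fell in resistant against parental tumours under vehicle, with a list median of −0.15 beside 0.02 over all genes, and averaged over treatments 1 rose and 13 fell. Of all genes, 20.1% were called under vehicle and 46.0% averaged over treatments, so the called shares of the list, 6 and 14 of 28, were near those of all genes. SFPQ, a core paraspeckle protein that binds NEAT1, averaged 266 ± 18.9 CPM in resistant and 384 ± 51.9 CPM in parental tumours under vehicle (log2 −0.53, SE 0.11, edgeR adjusted p = 0.000668). HNRNPR, an RNA-binding protein, was lower by −0.85 (SE 0.15, edgeR adjusted p = 0.000156), SMARCA4, a chromatin remodelling ATPase, by −0.62 (SE 0.11, edgeR adjusted p = 0.000158), and CPSF6, a subunit of the cleavage factor of 3′ end processing, by −0.45 (SE 0.11, edgeR adjusted p = 0.00314). No paraspeckle gene was called under decitabine alone in either line. With decitabine averaged over lines and doxorubicin, 4 of the 28 were lower and none higher (6.80% of all genes called). In the line difference of that effect 2 were lower and none higher (3.32% of all genes called).

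Of 24 tested genes of nuclear speckle proteins, 1 rose and 7 fell in resistant tumours under vehicle (list median −0.11, all genes 0.02, 20.1% of all genes called), and 3 rose and 9 fell averaged over treatments (46.0% of all genes called). PRPF4B, a kinase of splicing factors, was lower under vehicle by −0.83 (SE 0.10, edgeR adjusted p = 8.89e-07). The splicing factor genes SRSF11 and SRSF3 were lower under vehicle by −0.67 (SE 0.08, edgeR adjusted p = 9.19e-07) and −0.42 (SE 0.09, edgeR adjusted p = 0.000758). THRAP3, a speckle protein of splicing and transcription, was lower under vehicle by −0.44 (SE 0.09, edgeR adjusted p = 0.000805).

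Across the whole table, 20.1% of genes were called between lines under vehicle, and 3 of the 8 transcripts were among them. Averaged over treatments, 46.0% of genes and 7 of the 8 were called. Under decitabine 3.33% of genes and 2 of the 8 were called in resistant tumours, and 1.67% and 3 of the 8 in parental tumours. Under doxorubicin the edgeR test called no gene in resistant tumours, or 0%, with 591 genes at an unadjusted p under 0.05 and 1 called by DESeq2. In parental tumours it called 0.230% of genes and 2 of the 8. Under both drugs 1.13% of genes in resistant and 1.03% in parental tumours were called, with 1 of the 8 in each. The decitabine effect averaged over lines and doxorubicin called 6.80% of genes and 1 of the 8, and its difference between lines 3.32% and none. The choice of members used these contrasts, so nothing is read from their counts.

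Of the 1128 long non-coding genes tested, a class examined after the data were seen, 172 were higher and 36 lower in resistant than in parental tumours under vehicle. Their share called, 18.4%, lay beside 20.1% of all genes, and their median log2 difference was 0.28 beside 0.02. Averaged over treatments, 484 were higher and 90 lower, a share of 50.9% beside 46.0% of all genes. Under decitabine 24 were higher and 7 lower in resistant tumours, 2.75% beside 3.33% of all genes. In parental tumours 4 were higher and 13 lower, 1.51% beside 1.67% of all genes.

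Of 32 tested regulatory long non-coding RNAs in a list of known ones, 7 rose and 2 fell in resistant tumours under vehicle, and averaged over treatments 16 rose and 2 fell. Of all long non-coding genes tested, 18.4% and 50.9% were called in these contrasts. CRNDE, often raised in carcinomas, averaged 43.6 ± 20.2 CPM in resistant and 13.1 ± 3.19 CPM in parental tumours under vehicle (log2 1.72, SE 0.28, edgeR adjusted p = 7.05e-05). LINC00472 and LINC00963 were higher under vehicle by 1.48 (SE 0.23, edgeR adjusted p = 2.88e-05) and 1.28 (SE 0.20, edgeR adjusted p = 3.49e-05). LINC00665 had no count in resistant and 2.30 ± 1.01 CPM in parental tumours under vehicle. HCP5, a transcript of the MHC class I region, was higher with decitabine averaged over lines and doxorubicin by 1.44 (SE 0.29, edgeR adjusted p = 0.00251). It averaged 5.58 ± 0.922 CPM under decitabine and 2.29 ± 0.81 CPM under vehicle in resistant tumours.

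Of 17 other tested long non-coding hosts of microRNAs, none rose and 2 fell under decitabine in parental tumours, and none was called in resistant tumours. In parental tumours the list median was −0.32, beside −0.16 for all long non-coding genes tested and 0.01 for all genes (1.67% called). MIR23AHG averaged 93.4 ± 24.1 CPM under decitabine and 189 ± 64 CPM under vehicle (log2 −1.02, SE 0.24, edgeR adjusted p = 0.0325). MIR193BHG averaged 4.25 ± 1.27 CPM and 10.4 ± 3.45 CPM (log2 −1.29, SE 0.30, edgeR adjusted p = 0.0313). In edgeR fits with 1 library left out, neither was called when parental vehicle 4 or parental decitabine 2 or 3 was left out, nor MIR23AHG without parental decitabine 1 or parental vehicle 3, nor MIR193BHG without parental vehicle 2 (adjusted p from 0.0551 to 0.181). Without both libraries that stood apart, MIR23AHG was not called (edgeR adjusted p = 0.0719). MIR4435-2HG was lower in resistant than in parental tumours under vehicle, by −0.58 (SE 0.14, edgeR adjusted p = 0.00433). Of 20 tested hosts of small nucleolar RNAs, which guide modification of ribosomal RNA, 1 rose and none fell between lines under vehicle (20.1% of all genes called), and 2 rose and 5 fell averaged over treatments (46.0%). None was called under decitabine in either line, while SNHG3 was lower in the averaged decitabine effect (log2 −0.38, edgeR adjusted p = 0.0444, lost in 19 of 29 fits with 1 library left out). SNHG17 was lower in the line difference of that effect (log2 −0.72, edgeR adjusted p = 0.0338, lost in 13 of 29 such fits, and 0.108 without both libraries that stood apart). The one that rose under vehicle, SNHG7, was higher in resistant tumours by 1.43 (SE 0.47, edgeR adjusted p = 0.032), a call lost without parental vehicle 3 or resistant vehicle 1 or 2 (edgeR adjusted p from 0.0543 to 0.109) or without both libraries that stood apart (edgeR adjusted p = 0.0972).

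The genes whose log2 CPM followed each transcript most closely over the 29 libraries are given as a description, since the libraries share their line and drug. MIR222HG and MALAT1 both had PNISR, a gene of a nuclear speckle protein, as their nearest (Pearson r = 0.81 and 0.769). For MIR100HG the nearest named genes were PNPLA3 (r = 0.833) and KCNQ1OT1 (r = 0.822), a long antisense RNA of an imprinted region. LINC00470 followed THSD7B (r = 0.988), but within the resistant line r was 0.55. SLC7A11-AS1 followed CD163L1, DMKN and LCP1 (r = 0.933 to 0.934). For AC087392.1 it was CD93, a receptor of endothelial and myeloid cells (r = 0.931), with r = 0.922 within resistant and 0.945 within parental libraries. Within resistant and within parental libraries, r between SLC7A11-AS1 and CD163L1 was 0.695 and 0.541. In the same order it was 0.565 and 0.526 for DMKN, and 0.247 and 0.672 for LCP1. LINC01483 followed TAS1R1 (r = 0.851), with r = 0.93 within resistant and 0.419 within parental libraries, where LINC01483 had 5 counts. NEAT1 followed TMEM91 (r = 0.897), with r = 0.763 and 0.744 in the same order.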

How the data were processed

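RNA of xenograft tumours was sequenced as 3′ tags (Lexogen QuantSeq) from polyadenylated RNA, per the labels. The deposited values are whole-number counts per gene, which the authors made with cutadapt, STAR 2.7.3a and featureCounts on GRCh38.p10, per the submitters' processing notes. Annotation release, strand setting and handling of mouse reads were not stated. Symbols and positions were taken from GENCODE 29 (58039 of 58302 IDs matched) because the table has no coordinates. Genes passing edgeR's filterByExpr (minimum count 10, minimum total 15) were fitted with edgeR 4.0.16 (R 4.3.3; TMM, robust quasi-likelihood test, 8 group means, 29 libraries). A call is a Benjamini-Hochberg adjusted p under 0.05 over all 13495 genes. Totals and exact 95% intervals cover counting error only, and sequencing depth limits transcripts with few counts.

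Neighbours lay within 250 kb, and the 3 most alike genes per transcript were ranked by Pearson's r of log2 CPM (prior count 2). From each list and contrast, up to 4 called genes with the lowest p could be named. Transcripts and lists were chosen with earlier results of these data known. The scripts' tests were run on simulated counts. Alternatives were DESeq2 1.42.0, its size factors, no filter, a replicate block, and libraries left out. One neighbouring gene and one sequence are not reported here.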

Additional observations from a re-analysis of the deposited data

Results flagged for a closer look

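In groups of 4, the library farthest from the others was set against Dixon's critical value. Chance passes it in about 1 of 20 groups of normally distributed values. It was passed in 7 of 37 pairs of transcript and group. Near no count a difference of 1 read can pass it, so that number cannot be set against the chance rate. MIR100HG was low in parental vehicle 2, at 94.5 CPM, with the next library at 127 CPM. MALAT1 was low in the same library, at 5360 CPM, with the next at 7250 CPM. AC087392.1 had 0 CPM in parental vehicle 1, and the next library held 0.217 CPM, which is 1 count.

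The other 4 cases were single counts in groups otherwise at no count. LINC00470 stood at 0.186 CPM in parental combination 1. LINC01483 stood at 0.257 CPM in parental vehicle 3, at 0.195 CPM in parental decitabine 3 and at 0.226 CPM in resistant vehicle 4.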

How the results depend on the processing

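With the low-count filter dropped, DESeq2 in place of edgeR, the replicate number as a block, and parental vehicle 3 and resistant decitabine 2 left out together, decitabine in parental tumours called 942, 499, 147 and 96 genes, against 225. Doxorubicin in parental tumours called 192, 150, 3 and 3, against 31, and the decitabine by doxorubicin interaction 311, 73, 2 and 0, against 1. Decitabine in resistant tumours called 1089 without the filter and 162 without both libraries, against 450. Doxorubicin in resistant tumours called 74 without the filter and 1 with DESeq2, against 0. Without the filter, with DESeq2 and without both libraries, both drugs called 884, 342 and 85 in parental tumours, against 139, and 783, 256 and 363 in resistant tumours, against 152, and the line difference in the decitabine effect 1884, 1255 and 24, against 448. The causes were not tested.

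With 1 library left out, calls ranged from 6 (without parental decitabine 3) to 608 (without parental vehicle 1) for decitabine in parental tumours, from 146 (without resistant decitabine 2) to 728 (without resistant decitabine 1) in resistant tumours, from 1 to 124 for doxorubicin in parental tumours, from 53 to 300 and from 49 to 212 for both drugs in parental and in resistant tumours, from 35 to 1524 for the line difference and from 0 to 2 for the interaction. Both contrasts between lines and the averaged decitabine effect stayed within 1.5 times their counts under every alternative.

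The replicate numbers did not pair the libraries: correlations of same-numbered deviations lay between -0.2 and 0.39. Under the replicate block 562 of 579 tested values kept their status as called or not called, and no called value changed sign under any alternative. Values not called did change sign, such as AC087392.1 between lines under vehicle, at 1.13 and at −0.91 without resistant vehicle 1. DESeq2's calls moved the higher share of the line difference from 62.3% to 51.9%, and of the interaction from 100% of 1 gene to 56.2%. Of 2244 values of the 6 picked transcripts, 93 moved by more than their spread. LINC01483, with 43 counts, and the parental counts of LINC00470 and SLC7A11-AS1 are limited by depth.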
